A study of Mus musculus with 8 samples.

Results

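The genes described here are 10 genes of the circadian clock (Per1, Per2, Per3, Cry1, Cry2, Clock, Nr1d1, Nr1d2, Dbp and Tef) in mouse cheek skin. They were taken by name from the deposited gene table, in which all 10 were found among 18901 genes. Skin was taken from 4 TBX20fl/fl;K14-Cre mice (labelled as conditional knockouts), in which Cre under the keratin 14 promoter removes floxed exons of Tbx20 in keratinocytes, and from 4 TBX20fl/fl mice without Cre (labelled flox/flox). Per the study's methods, all mice were females of 7 weeks kept in 12 h of light and 12 h of dark, the cheeks were shaved, and 10 µg of brain natriuretic peptide (BNP) was injected into the cheek of both genotypes. The mice were recorded for 30 min and were killed 5 h after the recording. The clock time of collection was not given in the sources used here, and no skin without BNP was analysed here. Each library came from 1 mouse, and the sources tie no pair of mice to a shared litter or day. Because whole skin was sequenced, fewer cells of a type and less RNA per cell cannot be told apart in any level given below.

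The clock is a feedback loop of transcription that runs in nearly every cell and that, in skin, is known to time the division of keratinocytes and the growth cycle of hair follicles. CLOCK and its partner BMAL1, encoded by Arntl, bind E-boxes and activate the Per and Cry genes, whose proteins return to the nucleus and inhibit them. The same activators drive Nr1d1 and Nr1d2, which encode the repressors REV-ERBα and REV-ERBβ and act on Arntl and Nfil3 through ROR elements, and they drive Dbp. DBP, TEF and HLF activate through D-boxes, to which the repressor NFIL3 also binds. Levels of Dbp and Nr1d1 rise and fall steeply over a day and run opposite to those of Arntl and Npas2, so the level of a clock gene in a sample depends on when the tissue was taken.

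The elements through which these proteins act were searched in the RefSeq promoter windows of the GRCm38.p6 build (250 bases before to 50 bases after an annotated start, both strands). The search shows which of these windows hold the sequences searched, and bases outside the windows were not searched. Windows were held for 9 of the 10 genes (13 windows, none for Per2). The E-box CACGTG was found in 4 of the 13 windows (1 of 2 for Per1, the single one for Cry1 and both for Tef) and in 7.15% of all 32851 windows. The variant CACGTT, or AACGTG when read on the other strand, was found in 3 windows, those of Cry1, Cry2 and Nr1d1, and in 4.68% of all. The D-box, searched as TTATGTAA and TTACGTAA, was found in Per3 alone, which carried it at 2 places, and in 1.06% of all windows. The ROR element, in its consensus form with an A/T-rich flank, was found in none of the 13 windows and in 0.219% of all, among them that of Arntl. Matches are a description of these windows only. The sequences below give 30 bases around a match in the orientation of the gene, with the element in capitals.
Per1 E-box, chr11:69098771-69098800, plus strand: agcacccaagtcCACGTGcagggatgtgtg
Cry1 E-box, chr10:85185097-85185126, minus strand: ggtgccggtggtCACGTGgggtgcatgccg
Tef E-box, chr15:81802534-81802563, plus strand: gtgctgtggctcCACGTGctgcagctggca
Cry2 E-box variant, chr2:92434218-92434247, minus strand: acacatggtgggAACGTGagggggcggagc
Nr1d1 E-box variant, chr11:98775388-98775417, minus strand: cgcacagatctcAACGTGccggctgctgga
Per3 first D-box, chr4:151044852-151044881, minus strand: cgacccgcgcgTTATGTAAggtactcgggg
Per3 second D-box, chr4:151044805-151044834, minus strand: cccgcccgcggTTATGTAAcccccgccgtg
Arntl ROR element, chr7:113207528-113207557, plus strand: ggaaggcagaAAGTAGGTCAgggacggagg

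The libraries held 16056282 to 19880654 counts assigned to genes. One of them, TBX20fl/fl replicate 2, stood apart: its median rank correlation with the other libraries was 0.844, against 0.957 to 0.984 for the other 7. Results that rest on this mouse are therefore given with and without it. Tbx20 itself had 0 to 3 counts in every mouse of either genotype, so the deletion could not be checked in these libraries. The keratinocyte markers Krt5, Krt14, Krt1 and Krt10 were abundant in every library (summed 2545 to 3814 FPKM), and so were 8 skeletal muscle genes (10011 to 17622 FPKM). Of the other marker lists, 4 of 5 hair follicle genes (median log2 fold change 3.17) and 2 of 4 fibroblast genes (0.56) were under an unadjusted p of 0.05 in edgeR and higher with Cre (2.45% of all genes were), and no keratinocyte, muscle, adipocyte or endothelial marker was. The hair follicle value rested largely on TBX20fl/fl;K14-Cre replicate 2 (summed 1398 FPKM, against 24.1 to 182 in the other mice with Cre and 7.88 to 77.5 without), and without that mouse the count was 0 of 5 and the median 0.78. The hair follicle count was also 0 of 5 without TBX20fl/fl replicate 1 or replicate 4 and 2 of 5 without TBX20fl/fl replicate 3, and the fibroblast count was 0 of 4 without TBX20fl/fl;K14-Cre replicate 3 and 1 of 4 without TBX20fl/fl replicate 1 or with the trend with transcript length described below removed (3.5% of all genes higher at that p). Without TBX20fl/fl replicate 1 or replicate 4, 1 of 4 fibroblast genes was lower with Cre at that p (10.9% and 9.9% of all genes). Blocked on the replicate number, 2 of 3 endothelial and 1 of 8 muscle genes were higher (3.52% of all genes). Of all genes, 1.4% to 3.68% were higher at that p when 1 mouse was left out. FPKM, fragments per kilobase of transcript scaled to the mapped reads of the library, is the deposited per-length unit in which levels of different genes are compared below.

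All 10 clock genes were detected in every mouse, with between 49 counts (Per2 in TBX20fl/fl replicate 2) and 4740 counts (Tef in TBX20fl/fl;K14-Cre replicate 1). By median FPKM over the 8 mice they fell into 2 tiers. The upper tier held Dbp (67.1), Tef (51.2), Nr1d1 (50.4) and Nr1d2 (43.5), that is the PAR bZIP and REV-ERB genes among the 10. The lower tier held Cry2 (10.5), Clock (8.16), Per1 (6.53), Cry1 (5.74), Per3 (5.12) and Per2 (2.67). The only neighbours in this order whose ranges over the mice did not overlap were Nr1d2 (24.8 to 47.7) and Cry2 (3.33 to 11.6). Within a mouse, however, Dbp exceeded Tef, Cry2 exceeded Clock and Per3 exceeded Per2 in 8 of 8 mice. Tef exceeded Nr1d1 in 4 of 8 mice and Clock exceeded Per1 in 5 of 8, so the order within these pairs was not separated from the spread between mice. The tiers describe these 10 genes only. Of further core clock genes, Hlf, also of the PAR bZIP group, had a median of 7.135 FPKM, and Rora (27.9) and Bhlhe40 (18.5) lay between the tiers.

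Clock, on chromosome 5 of GRCm38 (76209868 to 76304792, minus strand), encodes the activating partner of BMAL1. The FPKM of Clock was 9.13, 8.00, 8.35 and 7.86 in TBX20fl/fl;K14-Cre replicates 1 to 4 and 8.55, 2.71, 7.31 and 8.31 in TBX20fl/fl replicates 1 to 4. Values in 7 of the 8 mice lay close together, TBX20fl/fl replicate 2 lay far below them, and the groups overlapped. The means were 8.34 ± 0.57 and 6.72 ± 2.73 (SD, n = 4 each), and the exact permutation test over all 70 assignments of the mice, two-sided here and throughout and unable to fall below 0.0286, gave p = 0.286. Leaving out TBX20fl/fl replicate 2, the mean of the TBX20fl/fl mice was 8.06 ± 0.66 (SD, n = 3), the difference went from 1.62 to 0.28 FPKM and the exact permutation p was 0.571.

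The Per genes encode the PERIOD proteins, which bind the CRY proteins and with them inhibit CLOCK and BMAL1. Per1 lies on chromosome 11 (69095217 to 69109960, plus strand), Per2 on chromosome 1 (91415982 to 91459324, minus strand) and Per3 on chromosome 4 (151003652 to 151044665, minus strand). The FPKM of Per1, the member that also responds quickly to glucocorticoid and cAMP signals, was 6.47, 8.60, 6.57 and 6.48 in the TBX20fl/fl;K14-Cre mice and 9.80, 1.38, 5.13 and 10.6 in the TBX20fl/fl mice, in the order of the replicate numbers. Of the TBX20fl/fl mice, 2 lay above all TBX20fl/fl;K14-Cre mice and the other two below, so that the means of 7.03 ± 1.05 and 6.72 ± 4.30 differed by less than their spread (SD, n = 4 each, exact permutation p = 0.914). When TBX20fl/fl replicate 2 was left out, the mean without Cre was 8.50 ± 2.95 (SD, n = 3), now above that with Cre (exact permutation p = 0.429). The FPKM of Per2 was 2.79, 2.54, 3.03 and 2.50 with Cre and 2.85, 0.56, 1.87 and 3.41 without, with TBX20fl/fl mice below, within and above the range of the other group (exact permutation p = 0.486, and 0.971 without TBX20fl/fl replicate 2). The FPKM of Per3 was 6.13, 4.75, 6.23 and 5.64 with Cre and 4.99, 0.81, 3.46 and 5.25 without. Here 3 of the 4 TBX20fl/fl;K14-Cre mice lay above every TBX20fl/fl mouse and replicate 2 of the TBX20fl/fl;K14-Cre mice lay below 2 of them. The means of Per3 were 5.69 ± 0.68 and 3.63 ± 2.04 (SD, n = 4 each), the exact permutation p of 0.0857 was the smallest among the 10 genes, and without TBX20fl/fl replicate 2 it was 0.143, with a mean of 4.57 ± 0.97 in the TBX20fl/fl mice (SD, n = 3).

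Cry1, on chromosome 10 (85131700 to 85185064, minus strand), and Cry2, on chromosome 2 (92403646 to 92434043, minus strand), encode the cryptochromes, the stronger inhibitors of the loop. The FPKM of Cry1 was 5.35, 6.17, 6.27 and 5.42 with Cre and 6.05, 2.64, 5.31 and 6.31 without. Apart from TBX20fl/fl replicate 2 the mice of both genotypes were interleaved (exact permutation p = 0.543, and 0.886 without this mouse). The FPKM of Cry2 was 11.6, 8.79, 11.3 and 11.5 with Cre and 10.4, 3.33, 8.07 and 10.5 without. As for Per3, 3 TBX20fl/fl;K14-Cre mice lay above all TBX20fl/fl mice and replicate 2 lay among the latter. The means of Cry2 were 10.8 ± 1.34 and 8.09 ± 3.37 (SD, n = 4 each, exact permutation p = 0.171). On leaving out TBX20fl/fl replicate 2 the difference in Cry2 went from 2.71 to 1.12 FPKM, with a mean of 9.67 ± 1.39 in the TBX20fl/fl mice (SD, n = 3, exact permutation p = 0.371).

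Nr1d1, on chromosome 11 (98767932 to 98775333, minus strand), and Nr1d2, on chromosome 14 (18204054 to 18239127, minus strand), encode haem-binding nuclear receptors that repress Arntl. The FPKM of Nr1d1 was 60.8, 37.1, 57.8 and 71.8 with Cre and 52.6, 14.2, 35.4 and 48.3 without. It was the member that varied most among the TBX20fl/fl;K14-Cre mice in FPKM, and replicate 2 of either genotype was the lowest of its group. The means were 56.9 ± 14.5 and 37.6 ± 17.3 (SD, n = 4 each, exact permutation p = 0.143). The mean in the TBX20fl/fl mice without replicate 2 was 45.4 ± 8.93 (SD, n = 3, exact permutation p = 0.286). The FPKM of Nr1d2 was 47.7, 36.1, 43.9 and 44.6 with Cre and 43.2, 24.8, 40.9 and 43.8 without. Leaving aside replicate 2 of either genotype, the other 6 mice lay within 40.9 to 47.7 (exact permutation p = 0.429 over all 8, and 0.857 without TBX20fl/fl replicate 2).

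Dbp, on chromosome 7 (45705088 to 45710203, plus strand), and Tef, on chromosome 15 (81802421 to 81826863, plus strand), encode PAR bZIP activators, and Dbp is widely used as a readout of the clock's output. The FPKM of Dbp was 78.8, 53.6, 76.0 and 69.8 with Cre and 65.4, 56.0, 61.0 and 68.8 without. TBX20fl/fl;K14-Cre replicate 2 was the lowest of all mice and the other three with Cre were the highest (means 69.6 ± 11.3 and 62.8 ± 5.54, SD, n = 4 each, exact permutation p = 0.343, and 0.543 without TBX20fl/fl replicate 2). The FPKM of Tef was 58.7, 41.3, 54.3 and 50.9 with Cre and 52.3, 15.6, 39.4 and 51.4 without. The groups overlapped, with TBX20fl/fl replicate 2 far below the rest (exact permutation p = 0.229). Without that mouse the difference in Tef went from 11.6 to 3.56 FPKM (exact permutation p = 0.486).

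**Figure D1:**
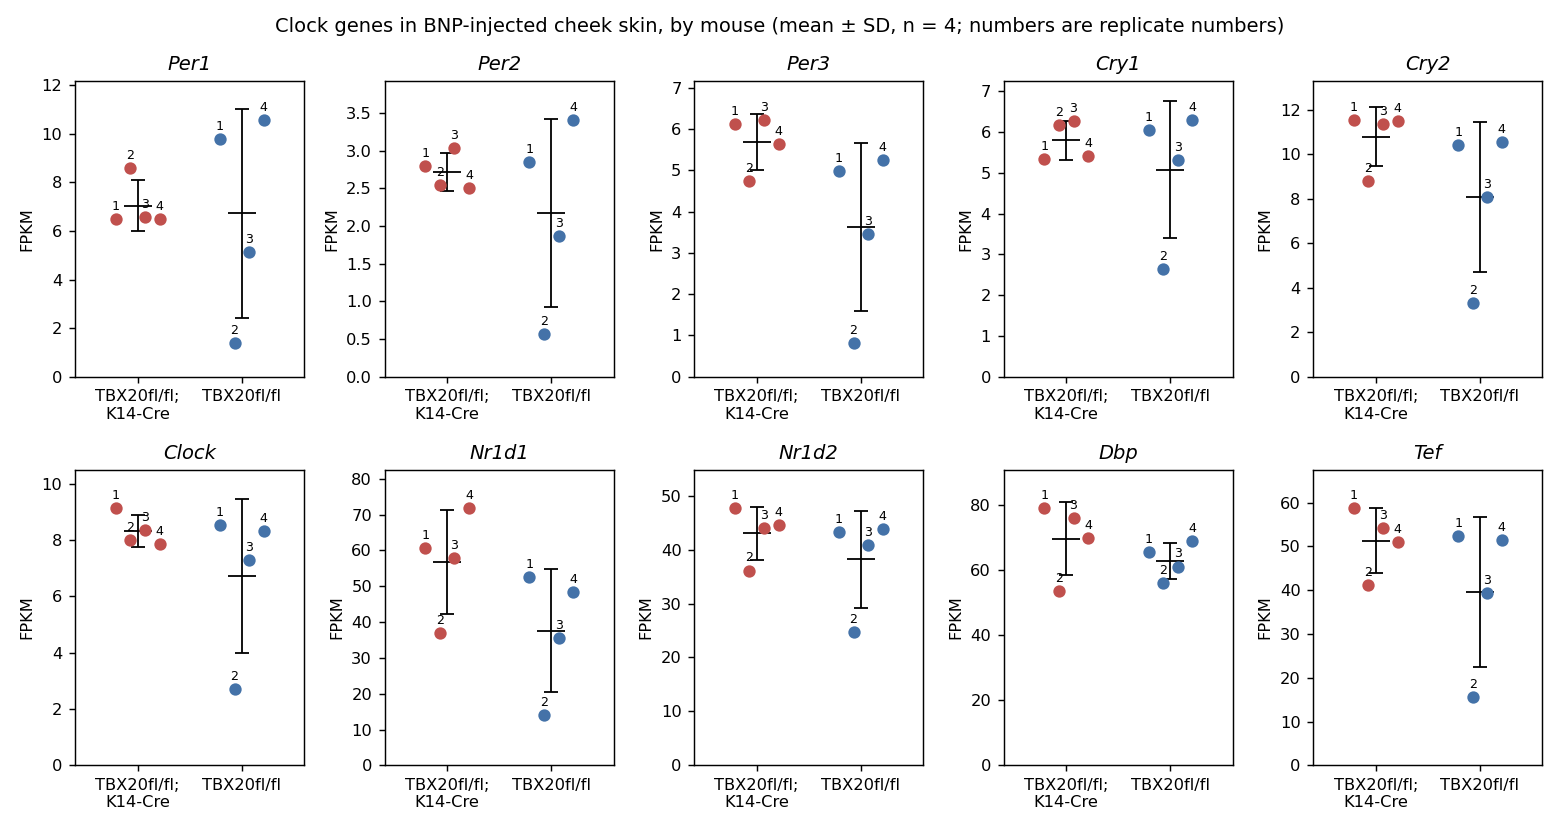
FPKM of the 10 clock genes in each mouse (points, labelled with the replicate number; red, TBX20fl/fl;K14-Cre; blue, TBX20fl/fl), with the mean and SD of 4 mice as a bar. In 9 of the 10 panels TBX20fl/fl replicate 2 is the lowest point of all 8 mice, the exception being Dbp. In FPKM this mouse was the lowest for 53.5% of all 17124 genes.

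In none of the 10 genes did the FPKM ranges of the genotypes separate (0 of 10), where 7.37% of 15969 genes (those averaging at least 0.1 FPKM) separated. Without TBX20fl/fl replicate 2 the count was also 0 of 10, against 8.23% of all genes. Without TBX20fl/fl;K14-Cre replicate 2, however, 5 of the 10 genes separated (Per3, Cry2, Nr1d1, Nr1d2 and Dbp), all 5 higher in the remaining TBX20fl/fl;K14-Cre mice, against 16.3% of all genes in either direction and 10.2% in that direction. Between mice of the same replicate number, Per3, Cry2, Nr1d1 and Nr1d2 were higher with Cre in 4 of 4 pairs (exact sign-flip permutation p = 0.125, the smallest that 4 pairs allow). That is 4 of 10 genes, where 22.2% of all genes were higher with Cre in 4 of 4 pairs. The pair numbered 2 holds TBX20fl/fl replicate 2, the lowest of all mice for these genes. Nr1d2 in TBX20fl/fl;K14-Cre replicate 2 (36.1 FPKM) lay below the other TBX20fl/fl mice (40.9 to 43.8). On the FPKM scale most genes were higher with Cre, and 65.6% of all genes, beside 10 of 10 members, had a limma log2 fold change above 0.

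The same question was asked of the deposited counts, fitted over 17124 genes with edgeR's quasi-likelihood test and Benjamini-Hochberg adjustment. No clock gene passed an adjusted p of 0.05 (0 of 10, where 0.0% of all genes passed), and none had an unadjusted p under 0.05 (0 of 10, against 8.36% of all genes). DESeq2 on the counts and limma on log2(FPKM + 1) also gave 0 of 10 at either threshold, with 11.4% and 6.55% of all genes under the unadjusted one. The log2 fold changes (TBX20fl/fl;K14-Cre over TBX20fl/fl) that came nearest to the threshold were those of Nr1d1 at 0.50 (SE 0.31, edgeR adjusted p = 0.502) and Per3 at 0.57 (SE 0.38, edgeR adjusted p = 0.512). For Nr1d1 the 95% interval ran from -0.20 to 1.20 and for Per3 from -0.30 to 1.43, so that both 0 and a log2 difference of 1 lay inside them. Intervals were narrowest for Nr1d2 (0.039, from -0.30 to 0.38), Dbp (-0.022, from -0.39 to 0.35) and Cry1 (0.076, from -0.34 to 0.49). The remaining values were 0.32 for Cry2, 0.27 for Tef, 0.24 for Per2, 0.21 for Clock and -0.0075 for Per1, with standard errors of 0.24 to 0.43.

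Over the 10 genes the median log2 fold change was 0.23 and 8 of 10 values were above 0, beside a share of 52.5% for all genes tested. Without TBX20fl/fl replicate 2 the median was 0.026 with 6 of 10 above 0 (52.3% of all genes). The value for Per1 then moved to -0.31 (SE 0.23), that for Per3 to 0.27 (SE 0.16) and that for Nr1d1 to 0.28 (SE 0.22), and the other 7 lay between -0.062 and 0.12. Blocked on the replicate number, 1 of the 10 genes was under 0.05 before adjustment, where 10.1% of all genes were. This was Nr1d1 (log2 fold change 0.55, edgeR adjusted p = 0.405). The count thus went from 0 to 1 with the block, and no member passed after adjustment.

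**Figure D2:**
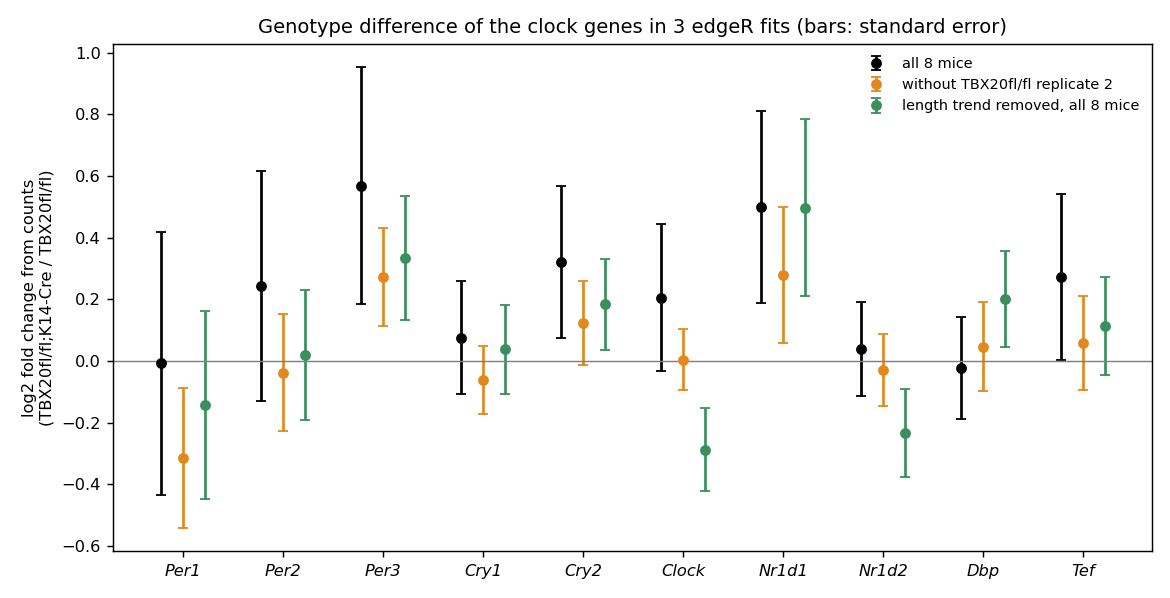
Log2 fold change of each clock gene from the counts (points, with standard error) in 3 edgeR fits, namely all 8 mice (black), without TBX20fl/fl replicate 2 (orange) and with the length trend removed (green). Per3 and Nr1d1 lie above 0 in all 3 fits (0.27 to 0.57 and 0.28 to 0.50), while Clock and Nr1d2 fall below 0 once the length trend is removed (-0.29 and -0.23).

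TBX20fl/fl replicate 2 was the lowest of all 8 mice in log2 CPM (counts scaled to the size of the library) for 9 of the 10 clock genes, where it was the lowest for 39.5% of all genes. This mouse differed from the others by transcript length. Among 13284 genes sorted by length into 5 groups of equal size, its median difference from the other mice ran from 1.13 for the shortest genes over 0.35, -0.13 and -0.58 to -1.23 on the log2 CPM scale for the longest, and the share of genes for which it was the lowest mouse ran from 1.51% to 90.1%. TBX20fl/fl replicate 3, which stays in the results without replicate 2, had a weaker trend in the same direction. The median differences of replicate 3 ran from 0.24 for the shortest genes over 0.070, -0.0060 and -0.079 to -0.24 for the longest. The clock genes are mostly long: Per2, Per3 and Clock fell in the longest group and Per1, Cry2, Nr1d2 and Tef in the next. Cry1 and Nr1d1 fell in the middle group and Dbp, with 1613 bases behind its FPKM, in the second shortest.

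**Figure D3:**
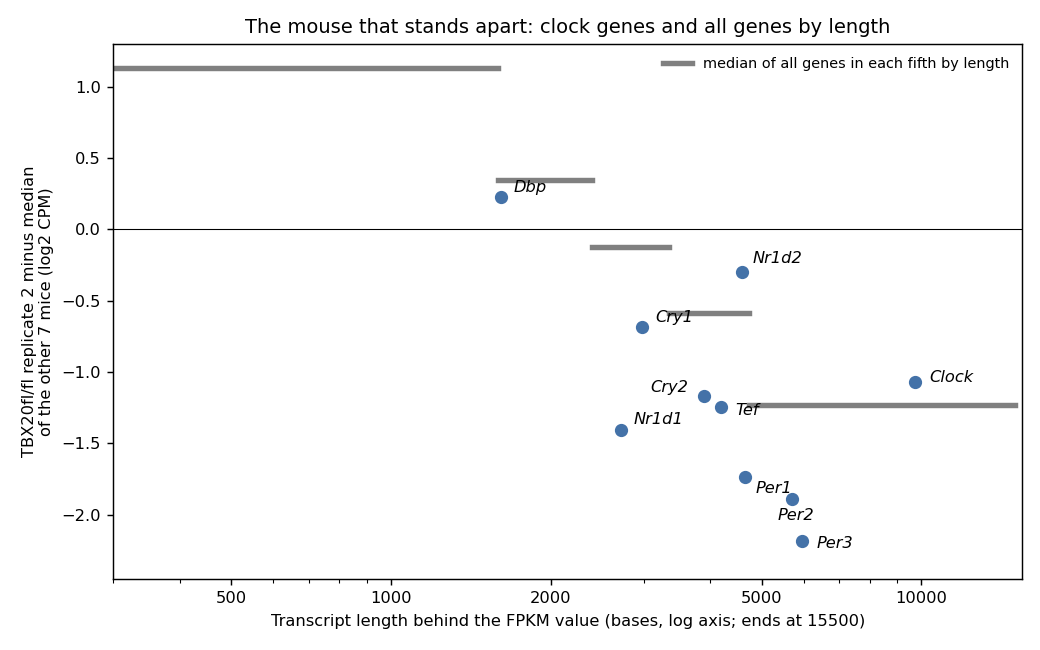
Difference of TBX20fl/fl replicate 2 from the median of the other 7 mice (log2 CPM) against transcript length on a log axis, for the 10 clock genes (points) and as the median of all genes in each of 5 equal groups by length (grey lines, the longest of which ends beyond the axis). Nr1d1 (-1.40) lies far below the line of its length group (-0.13), whereas Clock (-1.07) and Nr1d2 (-0.30) lie above theirs (-1.23 and -0.58).

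When a smooth trend of each mouse's deviation with length was removed, most of the low values in TBX20fl/fl replicate 2 shrank but stayed below those of the other mice. It was then the lowest of 8 mice for 8 of the 10 clock genes, Dbp now included, against 32.2% of all genes. It was then the highest for Clock (0.52 above the median of the others) and Nr1d2 (0.50), 2 of 10 against 29.7% of all genes. Nr1d1 was nearly untouched by the correction: its difference from the other mice in log2 CPM was -1.40 before and -1.35 after, and the trend at its length was -0.051. Per3 went from -2.18 to -1.01, Per1 from -1.73 to -0.89 and Per2 from -1.89 to -0.76. With the trend removed the genotype difference was 0.50 for Nr1d1 (SE 0.29, edgeR adjusted p = 0.537), 0.33 for Per3 (SE 0.20), 0.20 for Dbp (SE 0.16), -0.23 for Nr1d2 (SE 0.14) and -0.29 for Clock (SE 0.13), and the median over the 10 genes was 0.076 with 7 of 10 above 0 (53.0% of all genes). The direction for Clock, Nr1d2 and Dbp thus depended on the treatment of length. With the trend removed and the block in place, Nr1d1 (0.55) and Clock (-0.28) were under 0.05 before adjustment, 2 of 10 against 10.5% of all genes, and no member had an edgeR adjusted p below 0.461.

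The mice with Cre also differed among themselves. Among these 4 mice TBX20fl/fl;K14-Cre replicate 2 was the lowest in log2 CPM for 6 of the 10 clock genes (Per3, Cry2, Nr1d1, Nr1d2, Dbp and Tef), where it was the lowest for 32.0% of all genes. The same 6 genes were lowest there after the length trend was removed, against 28.1% of all genes. TBX20fl/fl;K14-Cre replicate 1 was the highest of the 4 for as many, 6 of the 10 (Per3, Cry2, Clock, Nr1d2, Dbp and Tef, against 25.6% of all genes), and for 7 of 10 with the length trend removed (25.5% of all genes). In replicate 2, relative to the median of the other 3 TBX20fl/fl;K14-Cre mice, Nr1d1 was at -0.76, Dbp at -0.51, Tef at -0.39, Per3 at -0.38, Cry2 at -0.35 and Nr1d2 at -0.29 on the log2 CPM scale. Per1 was instead the highest of the group, at 0.39 (1 of 10 genes highest there, against 33.8% of all genes). The 10 further core clock genes in this mouse ran from -0.98 for Npas2 over -0.60 for Bhlhe41, -0.51 for Hlf, -0.50 for Rora, -0.28 for Ciart, -0.057 for Arntl2, 0.054 for Bhlhe40, 0.098 for Arntl and 0.38 for Rorb to 0.75 for Nfil3, the D-box repressor. TBX20fl/fl;K14-Cre replicate 2 had the highest level of hair follicle keratins (Krt25, Krt27, Krt71, Krt73 and Krt35, mean log2 CPM of 8.58 against 2.57 to 5.55 in the other mice with Cre and 1.13 to 4.48 in those without) and the lowest level of skeletal muscle genes (10.6 against 10.9 to 11.5). With the muscle level as a covariate in edgeR, the members' median log2 fold change between genotypes was 0.224, beside 0.225 without it. The part of either tissue in the clock gene values of this mouse was not tested.

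**Figure D4:**
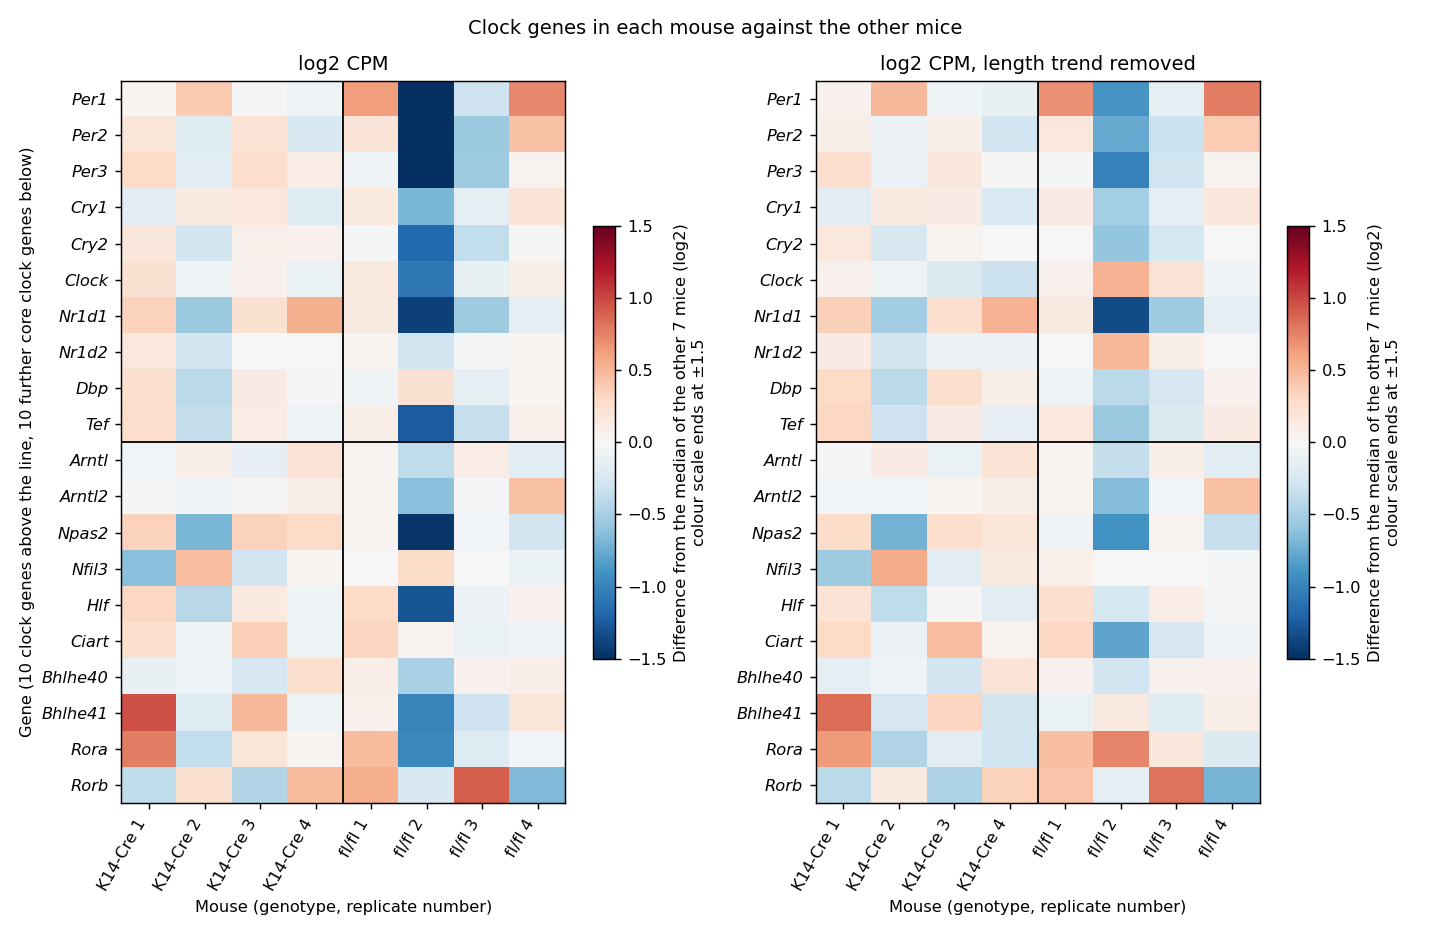
Difference of each mouse from the median of the other 7 (log2 CPM, colour; red higher, blue lower, scale ends at ±1.5) for the 10 clock genes and 10 further core clock genes, before (left) and after (right) removal of the length trend. In the column of TBX20fl/fl replicate 2, Nr1d1 is the lowest of the 10 genes on the right (-1.35) and Clock and Nr1d2 turn red (0.52 and 0.50). TBX20fl/fl;K14-Cre replicate 2 is low for Nr1d1, Dbp and Npas2 and high for Per1 and Nfil3 in both panels. Rorb, which has no length in the table, is shown with the trend at a typical length.

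Differences between 2 genes within a mouse do not depend on library size, although the length trend of TBX20fl/fl replicate 2 still enters those between genes of unlike length. The log2 FPKM of Dbp minus that of Nfil3, a pair chosen after the values were seen, was 4.04, 2.33, 3.59 and 3.14 in TBX20fl/fl;K14-Cre replicates 1 to 4 and 3.14, 3.12, 3.05 and 3.32 in the TBX20fl/fl mice. The spread of this difference was wide with Cre and narrow without, and replicates 1 and 2 of the TBX20fl/fl;K14-Cre mice were its 2 ends, while TBX20fl/fl replicate 2 lay within its group. Nr1d1 minus Nfil3 did not share this contrast. Its SD was 0.81 with Cre and 0.79 without (n = 4 each), and TBX20fl/fl replicate 2 was the lowest mouse (1.14). Dbp minus Arntl ranged from 3.19 (TBX20fl/fl;K14-Cre replicate 2) to 4.20 (TBX20fl/fl replicate 2), with group means of 3.57 ± 0.33 with Cre and 3.72 ± 0.34 without (SD, n = 4 each). The TBX20fl/fl mice other than replicate 2 were at 3.54, 3.42 and 3.72, inside the range with Cre (3.19 to 3.86). Nr1d1 minus Arntl ranged from 2.22 (TBX20fl/fl replicate 2) to 3.48 (TBX20fl/fl;K14-Cre replicate 1), with means of 3.26 ± 0.40 and 2.82 ± 0.49 (SD, n = 4 each). Here the TBX20fl/fl mice other than replicate 2 were at 3.22, 2.64 and 3.21, beside 2.66 to 3.48 with Cre. Per1 minus Per3, again chosen after the values were seen, was 0.078, 0.86, 0.077 and 0.20 with Cre and 0.97, 0.77, 0.57 and 1.01 without. On this difference TBX20fl/fl;K14-Cre replicate 2 lay among the TBX20fl/fl mice and the other 3 mice with Cre lay below all of them.

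Of 10 further core clock genes, none had an unadjusted p under 0.05 in edgeR (0 of 10, against 8.36% of all genes), 7 of 10 log2 fold changes were above 0 (52.5% of all genes) and their median was 0.097. Without TBX20fl/fl replicate 2 the counts were 0 of 10 (7.68% of all genes) and 5 of 10 (52.3% of all genes above 0) and the median was 0.016. With the block 1 of 10 was under that p (10.1% of all genes), namely Bhlhe41 (0.56, edgeR adjusted p = 0.405). With the length trend removed as well, the count was 0 of 10 (10.5% of all genes) and Bhlhe41 was at 0.18, beside 0.24 with the trend removed and no block, and 0.31 without TBX20fl/fl;K14-Cre replicate 1. Among the activators, Arntl was at 0.13 (SE 0.15), Arntl2 at -0.0061 (SE 0.22) and Npas2 at 0.43 (SE 0.37), or 0.20 without TBX20fl/fl replicate 2. The FPKM of Arntl, the partner of CLOCK, was 5.43, 5.86, 5.31 and 6.61 with Cre and 5.64, 3.04, 5.68 and 5.21 without, below that of Clock in 7 of the 8 mice. Among the factors that share D-boxes, Hlf was at 0.16 (SE 0.30) and Nfil3 at -0.097 (SE 0.23). Among the repressors of the E-box branch, Ciart was at 0.064 (SE 0.17), Bhlhe40 at 0.034 (SE 0.17) and Bhlhe41 at 0.56 (SE 0.30), and among the activators at ROR elements Rora was at 0.29 (SE 0.32), or 0.087 without TBX20fl/fl replicate 2, and Rorb, with 6 to 20 counts, at -0.27 (SE 0.40). Bhlhe41, which encodes DEC2, had 10.9, 5.30, 8.06 and 5.80 FPKM with Cre and 5.88, 2.08, 4.65 and 6.42 without, and the groups overlapped.

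Of 11 genes whose products modify clock proteins, among them the casein kinases Csnk1d and Csnk1e, none had an unadjusted p under 0.05 in edgeR (0 of 11, against 8.36% of all genes, median log2 fold change 0.030), and 1 of 11 did with the length trend removed (median -0.019), about the share of all genes in that fit (8.7%). Of 8 output genes that the clock is known to drive, 2 did, both lower with Cre, and both are named because of that: Nampt, which makes a precursor of NAD+, at -0.62 (SE 0.25, edgeR adjusted p = 0.498) and Tsc22d3, a glucocorticoid-induced gene, at -0.40 (SE 0.17, edgeR adjusted p = 0.498). Their share of the list may be read against the 5.91% of all genes that were lower at that p. Without TBX20fl/fl replicate 2 the values were -0.33 for both, and 3 of 8 were under that p, all lower (4.5% of all genes were), the third being Tspan4 (-0.23). With the length trend removed Nampt was at -1.02 (SE 0.39) and Tsc22d3 at -0.29 (SE 0.14). The count was 1 of 8 with the block (Tsc22d3, 6.54% of all genes lower), 1 of 8 with the length trend removed (Nampt, 5.2% lower), 1 of 8 without TBX20fl/fl;K14-Cre replicate 2 or TBX20fl/fl replicate 1, 3 or 4, and 0 of 8 without TBX20fl/fl;K14-Cre replicate 1, 3 or 4. Of all genes, 3.16% to 10.9% were lower at that p when 1 mouse was left out. Of 6 neutrophil markers, 4 were under the same unadjusted p and lower with Cre (median log2 fold change -1.18, mean log2 CPM of 3.41 to 4.53 with Cre and 4.51 to 5.76 without), and the part of these cells in the values of Nampt and Tsc22d3 was not tested. Of 7 glucocorticoid response genes, a list that shares Tsc22d3, Klf9 and Per1 with those above, 1 was under that p, again Tsc22d3, and the count was 0 of 7 with the length trend removed and also 0 of 7 without TBX20fl/fl;K14-Cre replicate 1, 3 or 4 or TBX20fl/fl replicate 1 or 4.

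Some of the 10 genes overlap a neighbour on the opposite strand, and the sources used here do not say whether counting used strand. In the GENCODE annotation of GRCm38 the exons of Nr1d1 share 263 bases (8.55% of its exonic bases) with Thra, the thyroid hormone receptor gene, and those of Dbp share 539 bases (18.0%) with Sphk2, a sphingosine kinase gene. The FPKM of Thra was 30.8, 32.8, 32.5 and 32.5 with Cre and 28.3, 17.6, 29.2 and 27.4 without, and its groups did not overlap (exact permutation p = 0.0286, the smallest possible, with and without TBX20fl/fl replicate 2). In the counts its difference was 0.24 (SE 0.14, edgeR adjusted p = 0.501). In TBX20fl/fl;K14-Cre replicate 2, where Nr1d1 was low, Thra had its highest FPKM although its count there (1957) was the lowest of that group (1957 to 2145). Sphk2 had 18.9 to 23.8 FPKM with Cre and 9.25 to 23.0 without. How reads in the shared stretches were divided between neighbours was not tested, and the values of Nr1d1 and Dbp are uncertain to that extent. Cry2 and Tef share 295 and 193 exonic bases with the non-coding D930015M05Rik and Gm17597, which were not analysed here.

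Genes that varied like Dbp from mouse to mouse were sought among 12291 genes with a mean CPM of at least 5, with each gene's log2 CPM taken as its deviation from its genotype mean. Over 8 mice the 5 highest Pearson correlations were those of Dnajc28 (0.977), Dtna (0.968), Hjv (0.955), Elovl1 (0.948) and Acadl (0.945), and the 5 lowest those of Fam167a (-0.988), Srsf6 (-0.977), Tnfrsf19 (-0.966), Crispld1 (-0.962) and Wnt5a (-0.957). None of these 10 is in the clock gene lists used here. With 8 points that share their libraries, and 12291 genes compared, such values are a description only. The other clock genes had correlations with Dbp of -0.47 (Cry1) to 0.41 (Nr1d2) over the 8 mice. Without TBX20fl/fl replicate 2 the values were 0.97 for Nr1d2 (rank 11 of 12291), 0.89 for Tef, 0.84 for Cry2, 0.78 for Nr1d1, 0.73 for Per3, 0.63 for Clock and 0.41 for Per2, and -0.18 and -0.20 for Per1 and Cry1. Hlf was at 0.91 in those 7 mice and at -0.042 over all 8, and Nfil3, the D-box repressor, at -0.96 (rank 12250) and -0.69 (rank 11762). Of the 5 genes at either end, Dtna and Fam167a were at the same end in both sets of mice.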

How the data were processed

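The authors sequenced cheek skin RNA from 4 mice of each genotype (50-base single-end reads), and the submitters' processing notes name HISAT. The deposited gene table holds estimated counts per gene (69.0% of those above 0 are not whole within 0.005) and FPKM values from the authors; the counting program, its use of strand and the genome build were not given in the sources used here, and the table's coordinates match GRCm38. Another 16 per-sample columns and the authors' own comparisons (17 columns of fold changes, and p-values) were not used.

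Counts were rounded and fitted with edgeR 4.0.16 (TMM, at least 10 counts summed over 8 mice). limma 3.58.1 on log2(FPKM + 1), for genes averaging at least 0.1, and DESeq2 1.42.0 were alternatives, as were the replicate block, a muscle covariate, removal of a lowess trend (span 0.3) of deviation on transcript length, and leaving out each mouse. Transcript length came from the ratio of counts to FPKM. Same-numbered mice deviated together (correlations of 0.160 to 0.405 over the 4 pairs, and of -0.518 to 0.426 over the 12 unlike-numbered pairs, 3 of which were above 0.160), the numbers being those of the titles. Per3 is placed on a scaffold in the table, so positions are from GENCODE. All 10 genes, the further core clock genes, overlapping neighbours and the 5 genes most and least like Dbp are named. Some genes of these lists are not reported here. The members and lists were chosen with earlier results of these data known. Scripts were tested on simulated data. P-values measure the spread between these mice.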

Additional observations from a re-analysis of the deposited data

Results flagged for a closer look

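Within each genotype, a mouse was singled out where its gap to the nearest other, divided by the group's range, exceeded Dixon's critical value. Among 60 groups of 4 (FPKM of the 20 core clock genes, mean levels of gene lists and total counts) 5 met this, where chance gives about 1 in 20, or 3.0. All 5 were replicate 2 of either genotype. In TBX20fl/fl;K14-Cre replicate 2, Per1 was high at 8.60 FPKM (others 6.47 to 6.57), Cry2 was low at 8.79 (others 11.3 to 11.6) and Npas2 was low at 0.37 (others 0.73 to 0.76). In TBX20fl/fl replicate 2, Nr1d2 was low at 24.8 FPKM (others 40.9 to 43.8) and Bhlhe40 was low at 9.57 (others 18.4 to 19.4). Nr1d1 was not singled out in either mouse.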

How the results depend on the processing

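No member passed an adjusted p of 0.05 under any alternative fit, and the replicate block changed no such call. Over all genes 10 passed in DESeq2 and 0 in edgeR (1431 under an unadjusted p of 0.05) and 0 in limma. The number of members with separate FPKM ranges went from 0 to 5 on leaving out TBX20fl/fl;K14-Cre replicate 2 and was 0 without any other mouse. The members' median log2 fold change ran from 0.026 to 0.35 on leaving out 1 mouse and was -0.029 with the length trend removed and TBX20fl/fl replicate 2 left out. Per3, Cry2, Nr1d1 and Tef, and Arntl, Npas2 and Bhlhe41, kept their direction in every fit. The other members and further core clock genes changed sign somewhere, and the cause was not tested. On leaving out 1 mouse, log2 fold changes ran from -0.31 to 0.27 for Per1, -0.037 to 0.51 for Per2, -0.062 to 0.16 for Cry1, -0.029 to 0.12 for Nr1d2, -0.10 to 0.088 for Dbp, -0.16 to 0.17 for Arntl2, -0.32 to 0.052 for Nfil3, -0.073 to 0.33 for Hlf, -0.014 to 0.15 for Ciart, -0.076 to 0.095 for Bhlhe40 and -0.49 to 0.027 for Rorb. FPKM differences (with Cre minus without) ran from -1.47 to 1.59 for Per1 and -0.088 to 1.14 for Cry1. With the length trend removed, Clock was at -0.29, Nr1d2 -0.23, Dbp 0.20, Arntl2 0.0098, Nfil3 0.035, Hlf -0.097, Bhlhe40 -0.021 and Rora -0.25. With the replicate block as well, Clock was at -0.28, Nr1d2 -0.22, Dbp 0.19, Arntl2 0.050, Hlf -0.096, Bhlhe40 -0.024 and Rora -0.26. With the trend removed and without TBX20fl/fl replicate 2, Per2 was at -0.13, Cry1 -0.064, Clock -0.17, Nr1d2 -0.10, Dbp 0.13, Nfil3 0.031, Hlf -0.17, Bhlhe40 -0.085 and Rora -0.10. With the block alone Per1 was at 0.20 and Arntl2 at 0.035, with limma on FPKM Per1 was at 0.29, Dbp 0.13, Arntl2 0.14 and Nfil3 0.025, and with the muscle covariate Dbp was at 0.0059. Depth limits Rorb and Npas2 most, with 6 to 20 and 9 to 59 counts. The length alternatives combined with the block or with a mouse left out, the FPKM fits with the block or without each mouse, the comparison with Dbp without TBX20fl/fl replicate 2, and the block, length and mouse-wise counts of the marker and other gene lists, were added after seeing the data.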
